A study of Rattus norvegicus with 15 samples.

Results

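The cytosolic ribosomal protein genes were followed across mesenteric artery and kidney cortex of rats with and without a deletion of noncoding DNA. They were taken by gene symbol: every row of the deposited table that carries a gene identifier and whose symbol is that of a cytosolic ribosomal protein, which gave 77 genes of the 34357 rows with an identifier. Of these, 46 encode proteins of the large subunit, the stalk genes Rplp0, Rplp1 and Rplp2 included, and 31 encode proteins of the small subunit, Rpsa included. No measured value entered the choice. The deletion was made in the Dahl salt-sensitive (SS) rat and removes a noncoding stretch at chr2:60825801-60856216 in build rn7, which is orthologous to a human region in linkage disequilibrium. The groups were 4 deletion and 4 wild-type mesenteric arteries, and 4 deletion and 3 wild-type kidney cortices. The titles call all of the rats male and call the deletion libraries knockouts; no source used here gives the ages of the rats or the number of founder lines. Values are FPKM, fragments per kilobase of gene scaled to the size of the library, from 1 library of total RNA per sample. No label says that the libraries of a group come from separate animals, so p-values measure the spread between these libraries, which may be technical.

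Ribosomal proteins are made in every cell and assemble with ribosomal RNA in the nucleolus into the small subunit, which reads the messenger RNA, and the large subunit, which joins amino acids. Their messenger RNAs are among the most abundant of a cell, and most begin with a C followed by a tract of pyrimidines, the 5′ terminal oligopyrimidine (TOP) tract, through which mTORC1 and the RNA-binding protein Larp1 set their translation and stability together. In the artery wall and in kidney tubules they serve as housekeeping genes, and their levels are often used as a mark of how much protein a tissue makes.

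The starts of some of these genes are shown because the family is known for the tract at the first transcribed base. At the annotated starts read here, 24 of 62 genes carried it. They were read from RefSeq promoter windows on build GRCr8, in which 62 of the 77 genes had an entry. Each line runs 5′ to 3′ on the gene's strand from 30 bases before the annotated start to 20 bases from it, and the unbroken run of pyrimidines that begins with a C at the start is in capitals. The first 4 lines are examples of genes called higher in artery than in kidney. Next are the genes with the highest level (Rplp1), the largest excess in 1 kidney library (Rpl37a) and the lowest level (Rpl35a). Last come Rpl21, with the smallest p for the deletion in artery, and Rps12, with that for the difference in its effect between the tissues. Neither has such a run. Among the genes called between the tissues, Rpl21, Rps6, Rps28, Rpl41 and Rpl18, with others, also lack one, so the 4 examples do not stand for all.
Rpl31: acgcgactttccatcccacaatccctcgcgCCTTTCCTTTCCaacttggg
Rpl39: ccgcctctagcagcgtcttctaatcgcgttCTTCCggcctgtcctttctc
Rps4x: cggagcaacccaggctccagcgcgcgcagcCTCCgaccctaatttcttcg
Rps27: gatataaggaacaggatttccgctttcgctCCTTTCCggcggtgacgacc
Rplp1: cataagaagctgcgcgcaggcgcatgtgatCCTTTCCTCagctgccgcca
Rpl37a: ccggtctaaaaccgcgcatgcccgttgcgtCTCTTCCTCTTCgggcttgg
Rpl35a: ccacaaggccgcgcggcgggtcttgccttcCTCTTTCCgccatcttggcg
Rpl21: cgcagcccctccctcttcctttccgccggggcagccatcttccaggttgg
Rps12: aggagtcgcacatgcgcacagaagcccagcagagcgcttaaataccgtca
The windows lie at chr9:49143081-49143130, plus strand, for Rpl31; chrX:121195877-121195926, minus strand, for Rpl39; and chr8:71290853-71290902, minus strand, for Rplp1. The run was 12 bases long in Rpl31 and Rpl37a, 9 in Rplp1, 8 in Rpl35a, 7 in Rps27, 5 in Rpl39 and 4 in Rps4x. A C at the start with pyrimidines through the first 5 bases stood in 24 of the 62 genes (38.7%), against 2.63% of all 33465 windows of the same length. Allowing the C of such a run to lie within 5 bases of the annotated start gave 40 of 62 (64.5%), against 17.0% of all windows. On the gene's strand, CTTTCC was found within the 50 bases from the start in 16 of 62 genes (25.8%), against 2.01% of all windows.

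Upstream, the 300-base windows, which run from 250 bases before the start to 50 after it, were searched on both strands for 4 further motifs. CCGGAAG, the core that ETS factors bind, stood in 20 of 62 ribosomal protein genes (32.3%), against 8.74% of all windows. GGGCGG, the core of the GC box, stood in 36 (58.1%), against 33.1%, and TATAAA, the TATA box, in 6 (9.68%), against 14.2%. The palindrome made of TCTCG and its reverse complement stood in 8 (12.9%), against 0.374%. These counts describe letters in a window and not binding.

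The libraries were checked against the labelled tissues before the genes were compared. The summed level of 7 smooth muscle markers (Acta2, Myh11 and others) ran from 1327 to 2726 FPKM in artery and from 37.2 to 77.3 FPKM in kidney, and that of 8 proximal tubule markers from 1.61 to 8.86 FPKM in artery and from 3529 to 6672 FPKM in kidney. The arteries also held markers of fat, with 7 adipocyte genes summing to between 1498 and 2802 FPKM, against 34.3 to 46.2 FPKM in kidney. In bulk tissue, fewer cells of a type and less RNA per cell cannot be told apart. Libraries that stood apart were the kidney labelled wild-type 3, with Xist at 81.1 FPKM, against at most 1.30 FPKM in the other 14 libraries, all of them labelled male; deletion artery 2 and wild-type artery 3, with B and plasma cell markers summing to 118 and 184 FPKM, against 5.24 to 59.2 FPKM in the other arteries; and wild-type artery 4, in which haemoglobin took 33.0% of the summed FPKM. The deletion removes noncoding DNA and no ribosomal protein gene: the nearest, Rpl37, lies 6.61 Mb away, so no level given here checks the genotype labels.

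Every ribosomal protein gene was detected in every library, with values between 1.90 and 1615 FPKM, and all 77 passed the filter of a mean of 0.5 FPKM in each comparison. FPKM is scaled by gene length, and levels of different genes are set side by side on it here. No source used here names the tool behind the values, so the lengths used are unknown. The order of genes by level is that of the deposited scale. Rplp1, an acidic protein of the stalk that recruits the elongation factors, had the highest level, averaged over the 4 groups. It measured 868, 1615, 886 and 846 FPKM in deletion arteries and 648, 813, 1005 and 973 FPKM in wild-type arteries, and 637, 597, 596 and 869 FPKM in deletion kidneys and 675, 925 and 1086 FPKM in wild-type kidneys. The groups overlapped throughout, and deletion artery 2 was far above all other libraries.

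Next in order came Rpl41, which encodes a very short, highly basic peptide, Rps6, the small-subunit protein that S6 kinase phosphorylates downstream of mTORC1, and the large-subunit genes Rpl26 and Rpl7. Rpl41 averaged 407 ± 114 FPKM in artery (SD, n = 8) and 633 ± 297 FPKM in kidney (SD, n = 7). Rps6 averaged 663 ± 139 FPKM in artery (SD, n = 8) and 376 ± 88.5 FPKM in kidney (SD, n = 7). Rpl26 averaged 575 ± 141 FPKM in artery (SD, n = 8) and 463 ± 89.2 FPKM in kidney (SD, n = 7), and Rpl7 averaged 512 ± 101 FPKM in artery (SD, n = 8) and 483 ± 75.2 FPKM in kidney (SD, n = 7). Averaged over the groups the 4 lay between 499.8 and 528 FPKM. Rpl26 and Rpl7 differed by less than 1 SD in both tissues, while Rps6 stood above Rpl41 in artery and below it in kidney.

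At the low end stood Rpl35a, a large-subunit gene mutated in some human patients with Diamond-Blackfan anaemia. It measured 3.51, 6.01, 1.90 and 5.37 FPKM in deletion arteries, 2.48, 5.63, 3.58 and 3.17 FPKM in wild-type arteries, 11.0, 5.64, 5.81 and 6.29 FPKM in deletion kidneys and 3.49, 5.90 and 28.7 FPKM in wild-type kidneys, and was below every other ribosomal protein gene by its mean. Wild-type kidney 3 was far above the rest, and the genotypes overlapped in both tissues. Rpl22, a large-subunit protein needed for T cell development in the mouse, followed with 19.6 ± 2.92 FPKM in artery (SD, n = 8) and 16.6 ± 5.92 FPKM in kidney (SD, n = 7). Rpl35 averaged 29.2 ± 8.32 FPKM in artery (SD, n = 8) and 31.3 ± 23.5 FPKM in kidney (SD, n = 7), Rpl15 averaged 47.9 ± 5.97 FPKM in artery (SD, n = 8) and 36.1 ± 9.04 FPKM in kidney (SD, n = 7), and Rpl38, which is needed for the translation of a subset of Hox messenger RNAs in the mouse, averaged 34.0 ± 5.96 FPKM in artery (SD, n = 8) and 50.6 ± 40.2 FPKM in kidney (SD, n = 7). The proteins enter the ribosome in equal copies, except the stalk proteins, so the range of messenger levels shown in the plot of levels is one of RNA on the FPKM scale. The table also lists 890 rows with no identifier named as pseudogenes of these genes, at 0 in all libraries, and 18 pseudogene rows with an identifier, of which 13 averaged at least 0.5 FPKM. No source used here says how reads shared between a gene and its processed copies were assigned, and the level of any single gene is uncertain to that extent.

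**Figure D1:**
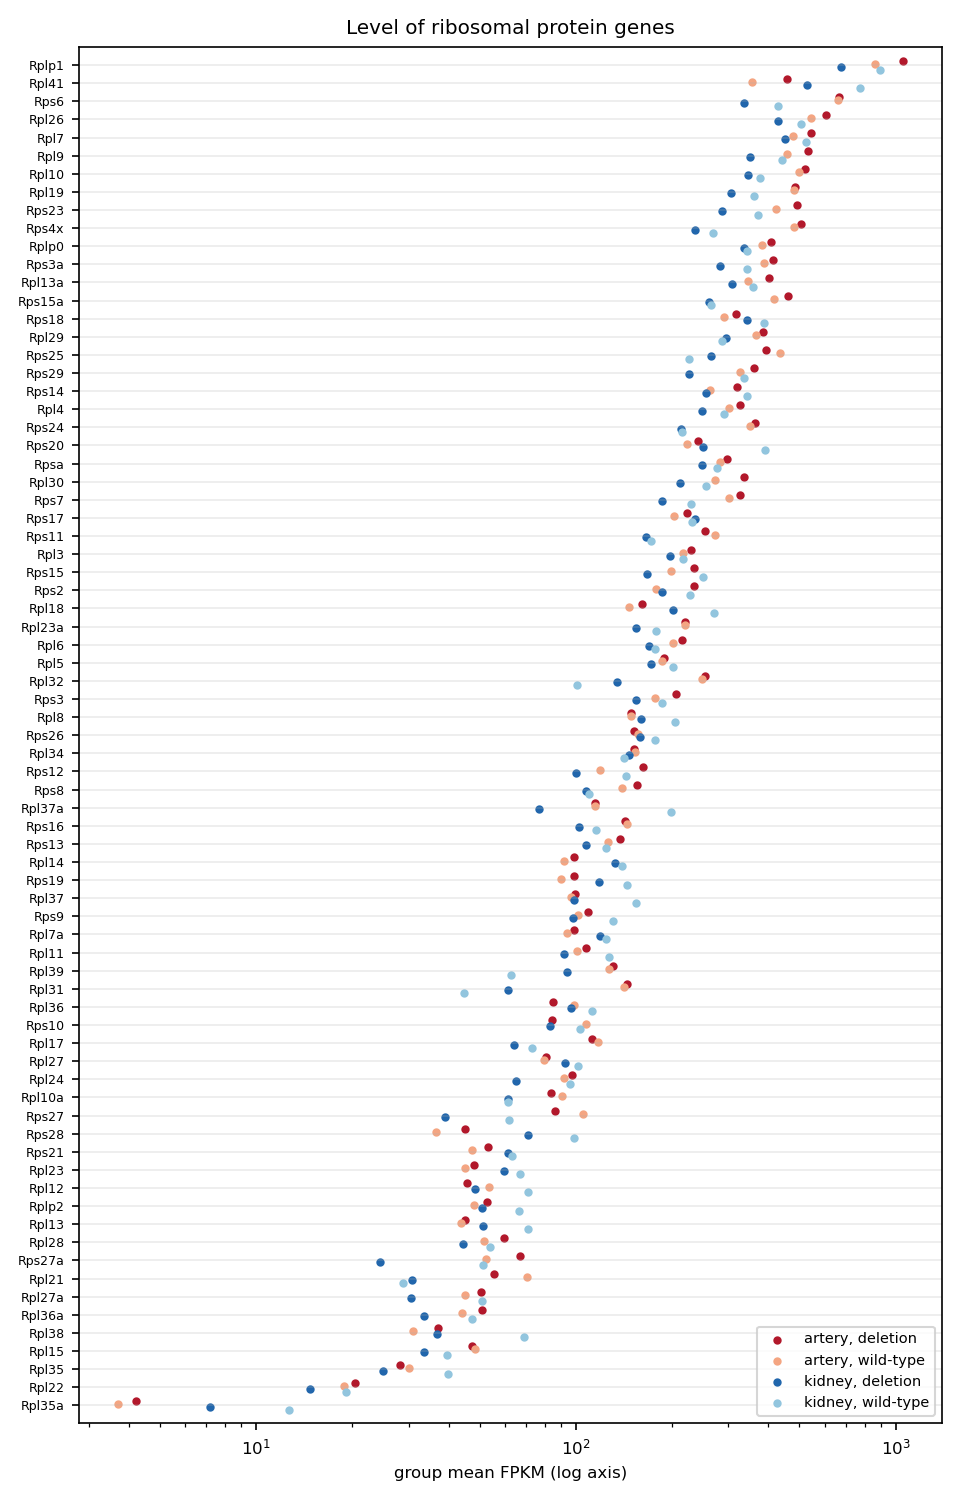
Group mean FPKM on a log axis for the ribosomal protein genes, ordered by their mean over the 4 groups, with 1 point per group (4 deletion and 4 wild-type arteries, 4 deletion and 3 wild-type kidneys). Rplp1 is highest and Rpl35a lowest.

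Among genes with known roles outside or at special places of the ribosome, Rpsa, the laminin-receptor protein of the small subunit, was one of the steadiest, at 289.7 ± 23.8 FPKM in artery (SD, n = 8) and 261 ± 31.8 FPKM in kidney (SD, n = 7). Rplp0, the base of the stalk, averaged 396 ± 47.6 FPKM in artery (SD, n = 8) and 338 ± 24.2 FPKM in kidney (SD, n = 7), and its partner Rplp2 averaged 50.4 ± 7.07 FPKM in artery (SD, n = 8) and 57.5 ± 22.5 FPKM in kidney (SD, n = 7). Rplp1 read higher than Rplp2, with which its protein pairs in the stalk, in every library.

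Rpl5 and Rpl11, which with 5S RNA bind Mdm2 and stabilise p53 when ribosome assembly fails, averaged 187 ± 35.1 FPKM in artery (SD, n = 8) and 185 ± 42.3 FPKM in kidney (SD, n = 7) for Rpl5, and 104 ± 17.6 FPKM in artery (SD, n = 8) and 107 ± 53.5 FPKM in kidney (SD, n = 7) for Rpl11. Rpl3, at the peptidyl transferase centre, averaged 223 ± 24.1 FPKM in artery (SD, n = 8) and 205 ± 28.7 FPKM in kidney (SD, n = 7). Rps19, the gene most often mutated in human Diamond-Blackfan anaemia, averaged 94.5 ± 25.7 FPKM in artery (SD, n = 8) and 129.5 ± 59.3 FPKM in kidney (SD, n = 7). For Rpl5, Rpl11 and Rpl3 the artery and kidney means differed by less than 1 SD of the artery libraries, and for Rps19 by more than that but less than 1 SD of the kidney libraries.

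The spread between libraries of a tissue differed among the genes. The coefficient of variation had a median of 18.8% over the 77 genes in artery and of 24.6% in kidney, which was 15.9% with the kidney labelled wild-type 3 left out. The ratio of the highest to the lowest library had a median of 1.79 in artery and 1.997 in kidney. Rpl29, a large-subunit protein, was the steadiest in both tissues, with a ratio of 1.15 over the arteries and 1.13 over the kidneys. Rps27a, whose product is a fusion of ubiquitin with a small-subunit protein, was the most variable in artery, with a ratio of 9.57. It measured 17.4, 167, 59.9 and 23.3 FPKM in deletion arteries and 18.1, 19.1, 97.3 and 75.7 FPKM in wild-type arteries, high in some libraries of each genotype. In kidney it measured 40.2, 19.3, 20.04 and 18.1 FPKM in deletion libraries and 13.5, 65.5 and 75.0 FPKM in wild-type libraries.

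The level of the 77 genes as a set differed from library to library. Their mean log2 level was 6.94, 7.49, 7.33 and 7.31 in the deletion arteries and 6.87, 7.23, 7.43 and 7.21 in the wild-type arteries. In kidney it was 7.02, 6.77, 6.93 and 7.02 in deletion libraries and 6.68, 7.05 and 7.65 in wild-type libraries. The wild-type kidneys held both the lowest and the highest kidney value. As a share of the summed FPKM of the library, the 77 genes took 5.46 ± 0.893% in deletion arteries and 4.94 ± 1.08% in wild-type arteries (SD, n = 4 each), and 3.15 ± 0.334% in deletion kidneys (SD, n = 4) and 3.68 ± 0.661% in wild-type kidneys (SD, n = 3). The genotypes overlapped in both tissues, while each artery but wild-type arteries 1 and 4 lay above all kidneys. Which arteries are the exceptions depends on the sum. With haemoglobin, the noncoding RNA Rn7sl1 and mitochondrial genes left out of it, wild-type artery 4 stood at 6.36%, above all kidneys. Deletion artery 1 (5.71%) and wild-type artery 1 (5.23%) then lay below wild-type kidney 3 (5.74%).

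**Figure D2:**
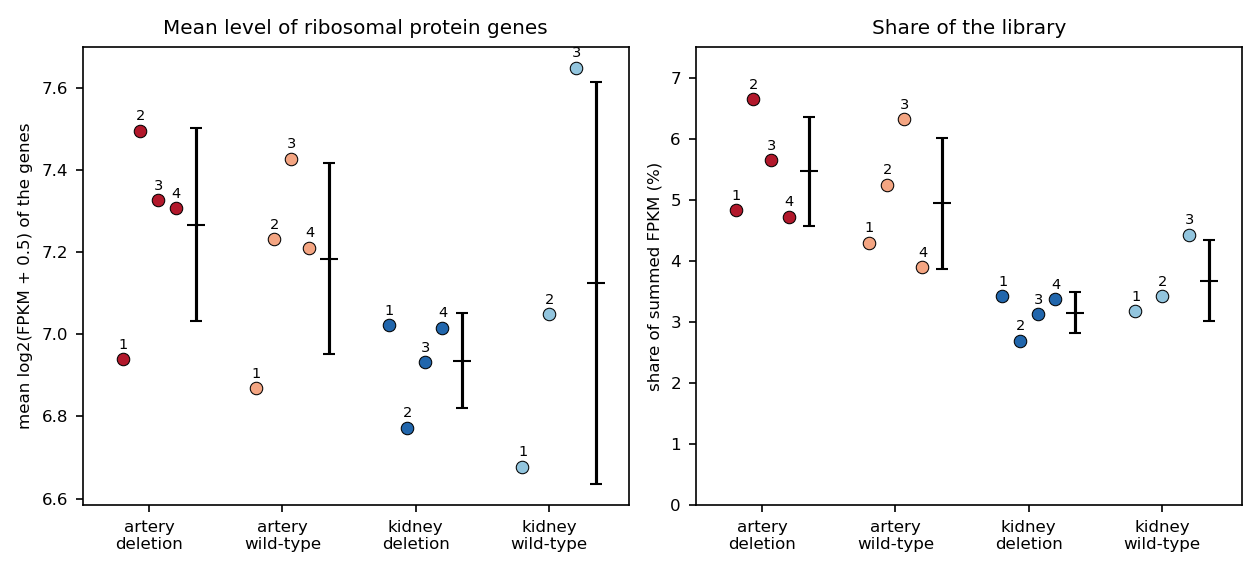
Left, the mean log2(FPKM + 0.5) of the 77 ribosomal protein genes in each library; right, their share of the summed FPKM in percent; numbers are replicate numbers and bars are the group mean and SD (n = 4, 4, 4 and 3). Wild-type kidney 3 stands at 7.65, above the other 6 kidneys at 6.68 to 7.05, and the genotypes overlap in each tissue.

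The arteries with the highest and lowest levels were deletion artery 2 and wild-type artery 1. Deletion artery 2 had the highest value of the 8 arteries for 37 of the 77 genes, against 18.2% of all genes tested, and wild-type artery 1 the lowest for 44, against 14.7% of all genes. Wild-type artery 3 was highest for 14 genes, against 13.9% of all genes. Deletion artery 1 was lowest for 21, a count for which the share over all genes was not computed, so it is not particular to these genes on the values given. Deletion artery 2 and wild-type artery 3 are the libraries with the highest B and plasma cell markers, and mesothelium markers summed to 138 FPKM in deletion artery 2, against 2.94 to 52.2 FPKM in the other arteries. The part of these cells in the levels was not tested.

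In kidney, the library labelled wild-type 3 had the highest value of the 7 kidneys for 64 of the 77 genes, against 17.6% of all genes tested, and the lowest for 2, against 32.6%. Among the other kidneys, deletion kidney 2 had the lowest value for 34 genes, against 19.3% of all genes, and the highest for 1, against 37.7%. Wild-type kidney 1 had the lowest for 29, against 8.66%. In deletion kidney 2, Rn7sl1 took 22.0% and mitochondrial genes 11.7% of the summed FPKM, each the highest of the kidneys. With these and haemoglobin left out of the sum, the 77 genes took 4.13% there, against 3.84% to 5.74% in the other kidneys. The excess in the library labelled wild-type 3 was uneven. Rpl37a, a large-subunit zinc-finger protein, measured 482 FPKM there and 33.0 to 81.2 FPKM in the other 6 kidneys. Rpl35a measured 28.7 FPKM there and 3.49 to 11.0 FPKM in the other 6 kidneys, Rpl38 measured 140.0 FPKM there and 20.8 to 45.8 FPKM in the other 6 kidneys, and Rpl35 measured 83.6 FPKM there and 14.3 to 28.6 FPKM in the other 6 kidneys. For Rpl37a the ratio to the median of the other kidneys was 6.27, for Rpl35a 4.89 and for Rpl35 3.77.

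A handful of genes went the other way in that library. Rpl32 measured 77.6 FPKM there and 84.6 to 153 FPKM in the other 6 kidneys, and Rpl39, a small protein lining the exit tunnel, measured 55.1 FPKM there and 58.6 to 107 FPKM in the other 6 kidneys. Rpl31, which sits near the mouth of the tunnel, measured 38.8 FPKM there and 35.4 to 70.7 FPKM in the other 6 kidneys. Rplp0 measured 322 FPKM there and 291 to 360.3 FPKM in the other 6 kidneys, within their range. A C at the start with 5 pyrimidines stood in 18 of the 52 searched genes that were highest in this library and in 6 of the 10 that were not. Its summed smooth muscle, macrophage, and T and NK cell markers were the lowest of the kidneys, and its B and plasma cell markers lay within their range. Its proximal tubule markers were the highest, at 6672 FPKM. So were its sums for elongation and other TOP genes (4414 FPKM), initiation factors (1792 FPKM), nucleolar biogenesis factors (690 FPKM) and RNA polymerase I genes (248 FPKM). Targets of p53 summed lowest there, at 108 FPKM, and regulators of mTORC1 and Myc were at neither end. Rn7sl1, a noncoding RNA of the signal recognition particle, took 15.1% of its summed FPKM, against 8.23% to 22.0% in the others. The part of these differences in its ribosomal protein levels was not tested.

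**Figure D3:**
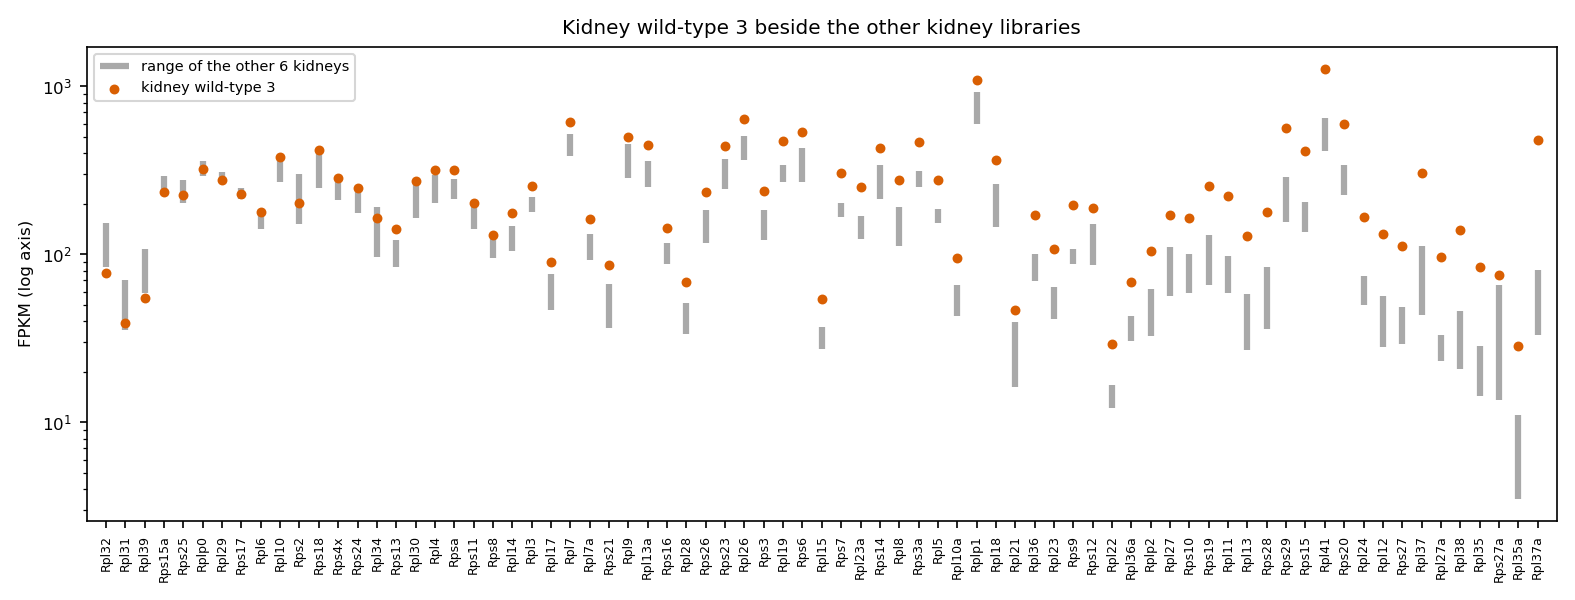
FPKM on a log axis of the ribosomal protein genes in the kidney library labelled wild-type 3 (points) beside the range of the other 6 kidney libraries (bars), ordered by the ratio to their median. From Rpl32, at 77.6 FPKM and below the bar, to Rpl37a, at 481.5 FPKM and far above it, the excess grows along the axis.

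The comparison of deletion with wild-type arteries asks whether loss of the interval changed these genes in the vessel. No ribosomal protein gene passed: limma called 0 of 77 at an adjusted p under 0.05, against 0.0% of the 16470 genes tested, and 1 of 77 had an unadjusted p under 0.05, against 5.24% of all genes. The fold change was positive for 60 of 77, against 59.7% of all genes. The median log2 fold change was 0.09, beside 0.04 over all genes, with 0.09 for the large and 0.12 for the small subunit. Deletion and wild-type arteries overlapped for all 77 genes; they did not overlap for 3.25% of all genes.

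Rpl21, a large-subunit protein at chr12:8268641-8272278 in rn7, had the smallest p in artery. It measured 47.3, 53.6, 53.8 and 67.1 FPKM in the 4 deletion arteries, against 75.2, 72.5, 71.6 and 62.6 FPKM in the 4 wild-type arteries. Deletion artery 4 lay among the wild-type values and the other 3 below them. limma estimated the log2 fold change at -0.35 ± 0.13 (SE), with p = 0.0197 before and 0.893 after adjustment, and an exact permutation test gave p = 0.0571, two-sided, where the smallest possible is 0.0286. Rps12, a small-subunit protein, measured 143, 224, 130.4 and 153 FPKM in the 4 deletion arteries, against 122, 87.9, 125 and 143 FPKM in the 4 wild-type arteries. Here deletion artery 2 was high and wild-type artery 2 low. The log2 fold change was 0.43 ± 0.20 (SE; limma adjusted p = 0.893), and 0.27 without deletion artery 2. Rps2, at the entry channel for messenger RNA, measured 174, 308, 253 and 205 FPKM in the 4 deletion arteries, against 151, 169.8, 187 and 202 FPKM in the 4 wild-type arteries, with a log2 fold change of 0.38 ± 0.19 (SE; limma adjusted p = 0.893), and 0.24 without deletion artery 2.

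Rps10, a protein of the small-subunit head that is ubiquitylated when ribosomes collide, measured 62.8, 74.3, 78.6 and 122 FPKM in the 4 deletion arteries, against 86.2, 115, 124 and 106 FPKM in the 4 wild-type arteries. The highest deletion value lay inside the wild-type range, and the log2 fold change was -0.38 ± 0.20 (SE; limma adjusted p = 0.893), and -0.57 without deletion artery 4. Rpl38 measured 33.8, 36.0, 33.1 and 45.4 FPKM in the 4 deletion arteries, against 27.0, 35.1, 35.3 and 26.2 FPKM in the 4 wild-type arteries, with overlapping groups and a log2 fold change of 0.26 ± 0.14 (SE; limma adjusted p = 0.893), and 0.16 without deletion artery 4. Single libraries set the median over the 77 genes: it was -0.02 without wild-type artery 1, with 34 genes positive, and 0.20 without deletion artery 1, with 69 positive. Leaving out deletion artery 2 and wild-type artery 3 together, the libraries rich in B and plasma cell markers, gave a median of 0.09 and 62 positive. The estimates bound what 4 libraries against 4 can show: for Rpsa, one of the steadiest genes, the ratio was 1.05-fold (95% interval 0.854 to 1.28), and for Rps27a, the least steady, it was 1.12-fold (95% interval 0.339 to 3.72).

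In kidney the same comparison called 0 of 77 genes with limma at an adjusted p under 0.05, against 0.0% of the 15444 genes tested, and 2 of 77 had an unadjusted p under 0.05, against 1.41% of all genes. The fold change was positive for 10 of 77, against 60.2% of all genes, with a median of -0.21, beside 0.04 over all genes. This rests on the library labelled wild-type 3: without it 45 of 77 were positive and the median was 0.03, beside 0.00 over all genes. In that fit 5 of 77 had an unadjusted p under 0.05, against 157 of all 15548 genes tested. Without wild-type kidney 1, the lowest, 7 were positive and the median was -0.39, beside 0.09 over all genes. There 21 of 77 had an unadjusted p under 0.05, against 1055 of all 15386 genes tested. None of the 77 passed the adjusted threshold in either case.

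The smallest p in kidney was that of Rpl39, at chrX:116327216-116330211 in rn7. It measured 102, 90.1, 107 and 74.8 FPKM in the 4 deletion kidneys, against 74.7, 58.6 and 55.1 FPKM in the 3 wild-type kidneys. All deletion libraries lay above all wild-type libraries, by a margin of less than 0.5 FPKM at the nearest pair. limma estimated the log2 fold change at 0.57 ± 0.18 (SE), with p = 0.011 before and 0.999 after adjustment, and the exact permutation test gave p = 0.0571, the smallest that 4 against 3 allow. Without wild-type 3 the log2 fold change was 0.48. Rpl31 measured 62.1, 70.7, 63.6 and 48.9 FPKM in the 4 deletion kidneys, against 60.5, 35.4 and 38.8 FPKM in the 3 wild-type kidneys, with wild-type kidney 1 inside the deletion range. Its log2 fold change was 0.47 ± 0.21 (SE; limma adjusted p = 0.999), and 0.39 without wild-type 3. Rpl32 measured 129, 147, 153 and 107 FPKM in the 4 deletion kidneys, against 141, 84.6 and 77.6 FPKM in the 3 wild-type kidneys, again with wild-type kidney 1 among the deletion values. Its log2 fold change was 0.44 ± 0.24 (SE; limma adjusted p = 0.999), and 0.28 without wild-type 3 and 0.71 without wild-type 1.

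Rps20, a head protein of the small subunit, measured 226, 228, 230.3 and 316 FPKM in the 4 deletion kidneys, against 236, 339 and 601 FPKM in the 3 wild-type kidneys. Wild-type 3 was the highest and wild-type 1 lay among the deletion values, and the log2 fold change was -0.55 ± 0.31 (SE; limma adjusted p = 0.999), or -0.19 without wild-type 3 and -0.87 without wild-type 1. Rpl36a, which is encoded on the X chromosome, measured 34.7, 32.2, 31.4 and 35.8 FPKM in the 4 deletion kidneys, against 30.5, 43.0 and 68.1 FPKM in the 3 wild-type kidneys. Its log2 fold change was -0.41 ± 0.23 (SE; limma adjusted p = 0.999), or -0.11 without wild-type 3 and -0.69 without wild-type 1. Deletion and wild-type kidneys did not overlap for 2 of 77 genes, Rpl39 and Rps25, both higher in deletion, against 2.55% of all genes. Rps25, which some viral internal ribosome entry sites need, measured 279, 254, 279 and 248 FPKM in the 4 deletion kidneys, against 246, 203 and 226 FPKM in the 3 wild-type kidneys, with a log2 fold change of 0.24 ± 0.18 (SE; limma adjusted p = 0.999).

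With limma's array weights, which give less weight to libraries that vary more, 4 ribosomal protein genes were called in kidney: Rpl31, Rpl32 and Rpl39 rose and Rps2 fell in deletion. With weights, 17 of 77 had an unadjusted limma p under 0.05, against 4020 of all 15444 genes. Without weights it was 217 of all genes. The weighted fit gave a median log2 fold change of -0.09 over the 77 genes, with 25 positive, and called 282 of the 15444 genes (1.83%). It was the only one of the settings tried that called any of the 77 genes in a comparison of genotype, and in it Rpl31, Rpl32 and Rpl39 had log2 fold changes of 0.70, 0.57 and 0.66. The same 3 genes had the lowest ratios to the other kidneys in the library labelled wild-type 3. Without weights, leaving that library out gave them 0.39, 0.28 and 0.485, in the same order. Leaving out wild-type kidney 1 gave 0.71, 0.71 and 0.70. Rps2, at -0.64 with weights, was highest in wild-type kidney 2. The part of any single library in the 4 calls was not tested.

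The deletion effect in artery minus that in kidney was tested across all 15 libraries. limma called 0 of 77 genes at an adjusted p under 0.05, against 0.0% of the 16856 genes tested, and 2 of 77 had an unadjusted p under 0.05, against 4.39% of all genes. The difference was positive for 66 of 77, against 49.6% of all genes, with a median of 0.27. Without the library labelled wild-type kidney 3 it was positive for 42 with a median of 0.03, beside 0.03 over all genes. Without wild-type kidney 1 it was positive for 70 with a median of 0.51, beside -0.05 over all genes. Rps12 had the smallest p. In kidney it measured 93.6, 85.9, 99.4 and 122 FPKM in the 4 deletion kidneys, against 88.0, 153 and 189 FPKM in the 3 wild-type kidneys, where in artery the deletion libraries were the higher ones by their mean. The difference on the log2 scale was 0.89 ± 0.34 (SE; limma adjusted p = 0.943), and 0.66 without wild-type kidney 3.

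Rps2 came next, with a difference of 0.64 ± 0.29 (SE; limma adjusted p = 0.943). It measured 199.99, 189, 151 and 203 FPKM in the 4 deletion kidneys, against 176, 302 and 203 FPKM in the 3 wild-type kidneys, where wild-type kidney 2 was highest. Rps23, at the decoding centre, had a difference of 0.57 ± 0.27 and Rpl9, of the large subunit, of 0.58 ± 0.30 (SE; limma adjusted p = 0.943 for each). Leaving out single libraries gave 0.41 to 0.80 for Rps2, the lowest without wild-type kidney 2, 0.44 to 0.72 for Rps23 and 0.43 to 0.71 for Rpl9. Without wild-type kidney 3 these were 0.70 for Rps2, 0.44 for Rps23 and 0.49 for Rpl9.

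**Figure D4:**
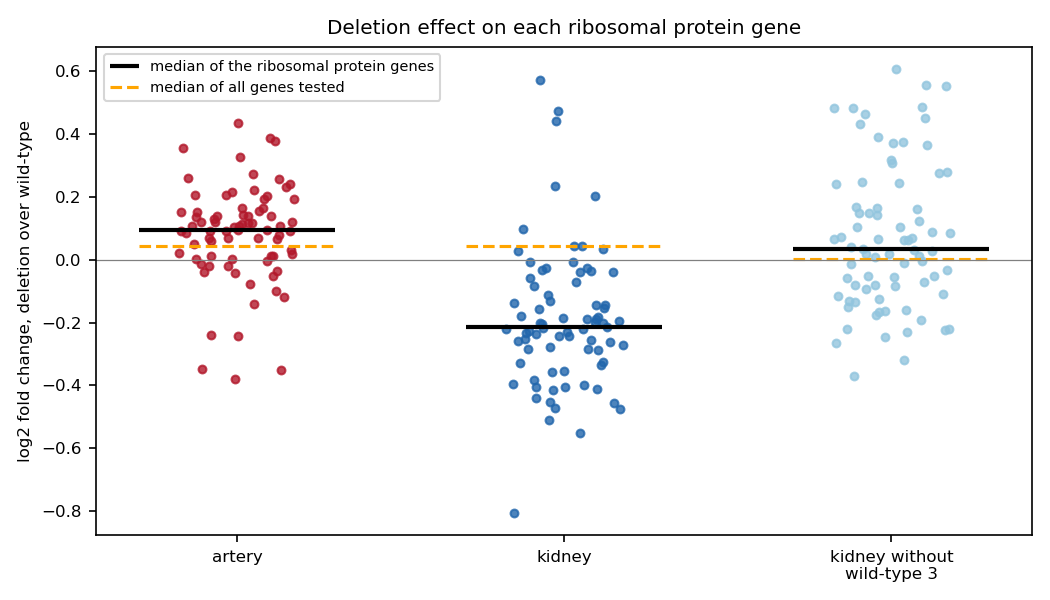
log2 fold change, deletion over wild-type, of each of the 77 ribosomal protein genes (points) in artery (4 against 4 libraries), in kidney (4 against 3) and in kidney without the library labelled wild-type 3 (4 against 2), with the median of the 77 genes (solid) and of all genes tested (dashed). The medians of the 77 genes are 0.09 in artery, -0.21 in kidney and 0.03 in kidney without that library.

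The comparison of artery with kidney called 25 ribosomal protein genes higher in artery and 5 lower on FPKM as deposited, and these counts move with the scaling. Over all 15 libraries limma called 30 of 77 (39.0%), against 77.0% of the 16856 genes tested, at an adjusted p under 0.05. Of these, 25 were higher in artery (32.5% of the 77), against 41.8% of all genes, and 5 were lower (6.49%), against 35.2%. The 25 comprised 12 of the large and 13 of the small subunit, and the 5 comprised 4 of the large and 1 of the small. The median log2 fold change was 0.23, beside 0.11 over all genes; 53 of 77 were positive, against 54.4% of all genes, and 32 of 77 had an unadjusted p under 0.05, against 78.5%. Artery and kidney libraries did not overlap for 9 of 77 genes, all higher in artery, against 50.0% of all genes.

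The split depends on how libraries are scaled to each other. With median-of-ratios scaling 16 genes were higher in artery and 9 lower, which is 32.5% of the 77, against 77.3% of all genes. With quantile normalization 58 were higher and 1 lower, 76.6% of the 77, against 76.4% of all genes. With FPKM rescaled to a sum without haemoglobin, Rn7sl1 and mitochondrial genes 50 were higher and 1 lower, 66.2%, against 78.6%, and there 53.3% of all genes were higher. A share called below that of all genes was thus not found with quantile normalization. The median over all genes was -0.03, 0.07 and 0.41 in these 3 scalings, and that of the 77 genes 0.08, 0.69 and 0.57, so relative to all genes it stood 0.10, 0.62 and 0.16 above, beside 0.12 on FPKM as deposited. The genes called higher in artery in all 4 scalings were 16, and none was called lower in all 4. All 25 genes called higher kept their sign in the 4 scalings, and of the 5 called lower, Rpl14 was positive with quantile normalization. Without the library labelled wild-type kidney 3, 32 were higher and 3 lower, against 39.8% and 34.8% of all genes, and 28 of the 30 calls were shared. Without wild-type kidney 1, 23 were higher and 15 lower, against 42.6% and 34.4% of all genes. The median of the 77 genes was then 0.10, beside 0.14 over all genes, so there it lay below that of all genes.

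Rpl31 differed most between the tissues. It measured 93.6, 171, 171 and 141 FPKM in deletion and 116, 148, 159 and 144 FPKM in wild-type arteries, against 62.1, 70.7, 63.6 and 48.9 FPKM in deletion and 60.5, 35.4 and 38.8 FPKM in wild-type kidneys. Every artery lay above every kidney, with a log2 fold change of 1.44 ± 0.15 (SE; limma adjusted p = 3.45e-07). Rpl21 measured 47.3, 53.6, 53.8 and 67.1 FPKM in deletion and 75.2, 72.5, 71.6 and 62.6 FPKM in wild-type arteries, against 27.2, 31.1, 25.3 and 39.3 FPKM in deletion and 16.2, 24.0 and 46.5 FPKM in wild-type kidneys. The tissues did not overlap, and Rpl21 had a log2 fold change of 1.13 ± 0.17 (SE; limma adjusted p = 2.38e-05). Rpl32 averaged 251 ± 41.7 FPKM in artery (SD, n = 8) and 120.0 ± 30.5 FPKM in kidney (SD, n = 7), without overlap, with a log2 fold change of 1.12 ± 0.15 (SE; limma adjusted p = 5.87e-06). The X-linked Rps4x averaged 494 ± 56.4 FPKM in artery (SD, n = 8) and 249.96 ± 26.6 FPKM in kidney (SD, n = 7), again without overlap, with a log2 fold change of 0.97 ± 0.10 (SE; limma adjusted p = 3.12e-07).

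Rps27, a zinc-finger protein of the small subunit, measured 50.2, 103, 114 and 76.3 FPKM in deletion and 85.5, 97.8, 125 and 114 FPKM in wild-type arteries, against 48.8, 29.2, 39.7 and 37.8 FPKM in deletion and 34.4, 38.9 and 113 FPKM in wild-type kidneys. Apart from wild-type kidney 3, at 113 FPKM, every kidney lay below every artery, and Rps27 had a log2 fold change of 1.03 ± 0.24 (SE; limma adjusted p = 0.00111). Rps6 averaged 663 ± 139 FPKM in artery (SD, n = 8) and 376 ± 88.5 FPKM in kidney (SD, n = 7), with a log2 fold change of 0.80 ± 0.16 (SE; limma adjusted p = 0.000382). Rpl17, at the exit tunnel, had a log2 fold change of 0.75 ± 0.14 (SE; limma adjusted p = 0.000121), Rps25 a log2 fold change of 0.74 ± 0.13 (SE; limma adjusted p = 6.32e-05) and Rpl39 a log2 fold change of 0.72 ± 0.16 (SE; limma adjusted p = 0.000624). Rps24, a small-subunit gene mutated in some human patients with Diamond-Blackfan anaemia, had a log2 fold change of 0.71 ± 0.16 (SE; limma adjusted p = 0.000649). Rps25 and Rpl17 did not overlap between the tissues, while Rpl39, Rps24 and Rps6 did.

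Of the 5 genes lower in artery, Rpl35a had a log2 fold change of -0.96 ± 0.36 (SE; limma adjusted p = 0.024). It was lower in artery at the lowest levels of the family, and the call ends without wild-type kidney 3, where the log2 fold change was -0.54. Rps28, a small-subunit protein at the messenger exit, measured 35.8, 45.6, 46.4 and 52.97 FPKM in deletion and 20.9, 42.1, 48.2 and 34.6 FPKM in wild-type arteries, against 75.7, 61.7, 69.8 and 76.2 FPKM in deletion and 35.8, 83.6 and 178 FPKM in wild-type kidneys. Wild-type kidney 1 lay among the arteries and the other 6 kidneys above all of them, and Rps28 had a log2 fold change of -0.93 ± 0.26 (SE; limma adjusted p = 0.00472). Rpl41 had a log2 fold change of -0.62 ± 0.22 (SE; limma adjusted p = 0.0206), and -0.40 with no call without wild-type kidney 3. Rpl14 and Rpl18, named because they complete the 5 and after their values were seen, had log2 fold changes of -0.51 and -0.58. Of the 5, Rpl35a alone was called lower with quantile normalization and Rps28 alone with the sum without abundant RNAs.

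**Figure D5:**
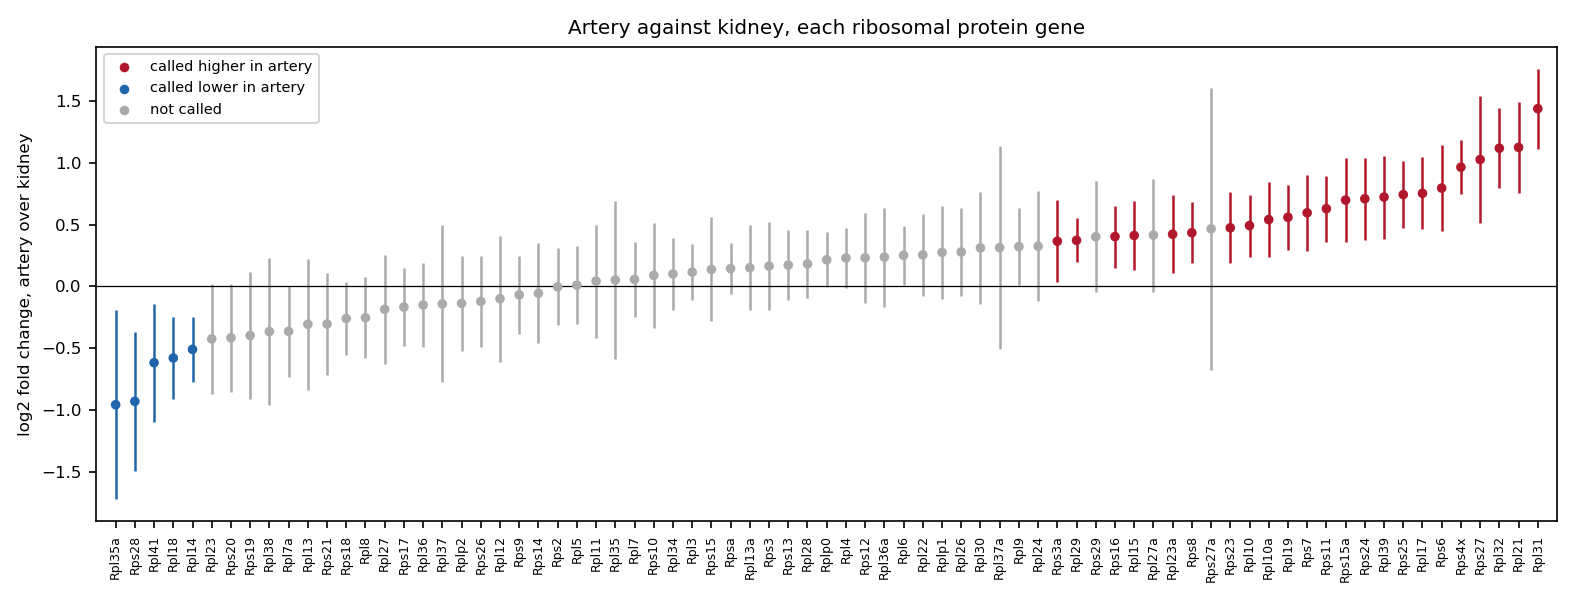
log2 fold change, artery over kidney, of the ribosomal protein genes, each with its 95% confidence interval from limma over 15 libraries (8 arteries, 7 kidneys), ordered by size and coloured by the call at an adjusted p under 0.05. Genes called higher in artery reach 1.44 (Rpl31), and the 5 called lower run from -0.51 (Rpl14) to -0.96 (Rpl35a).

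Of the genes with known special roles, Rpl10, which closes the assembly of the large subunit, was higher in artery, at 509 ± 65.6 FPKM (SD, n = 8), against 359 ± 41.3 FPKM in kidney (SD, n = 7), with a log2 fold change of 0.49 ± 0.12 (SE; limma adjusted p = 0.00137). Rps4x, Rps6 and Rps25 are given above. The log2 fold changes of the stalk genes were 0.22 ± 0.10 for Rplp0, 0.28 ± 0.18 for Rplp1 and -0.14 ± 0.18 for Rplp2 (SE), none of them called. Nor did limma call Rpsa (0.14 ± 0.10), Rpl3 (0.12 ± 0.11), Rpl5 (0.01 ± 0.15), Rpl11 (0.04 ± 0.21), Rps19 (-0.40 ± 0.24), Rpl22 (0.26 ± 0.16), Rpl38 (-0.36 ± 0.28) or Rps27a (0.47 ± 0.54), each as log2 fold change and SE. Of the 18 genes mutated in human Diamond-Blackfan anaemia, 5 rose in artery (against 41.8% of all genes), 3 fell (against 35.2%) and 10 did not pass. Their median was 0.05, and 0.29 without wild-type kidney 3. The split was 4 and 3 with median-of-ratios scaling, against 36.9% and 40.4% of all genes. With quantile normalization it was 12 and 1, against 40.3% and 36.1%. With the sum without abundant RNAs it was 9 and 1, against 53.3% and 25.3%. The tract at the start stood in 9 of 17 searched genes that were higher in artery, in 2 of 5 that were lower and in 13 of 40 that were not called.

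The genes around the ribosome were read in the same comparison, from lists of related genes. Of all genes tested, 41.8% were called higher and 35.2% lower in artery on FPKM as deposited. The shares were 36.9% and 40.4% with median-of-ratios scaling and 40.3% and 36.1% with quantile normalization. With the sum without abundant RNAs they were 53.3% and 25.3%. The counts of each list are to be read beside these shares, and a split near them is not particular to the list. Of the paralogs, which can stand in for a ribosomal protein, 6 were tested: 3 fell in artery and 1 rose. Rpl22l1, which can replace Rpl22, averaged 83.5 ± 28.1 FPKM in artery (SD, n = 8) and 159 ± 35.3 FPKM in kidney (SD, n = 7), a log2 fold change of -0.99 ± 0.21 (SE), and by these means it read above Rpl22 in both tissues. Rps27l, which p53 induces, averaged 20.4 ± 4.09 FPKM in artery (SD, n = 8) and 51.1 ± 17.3 FPKM in kidney (SD, n = 7), a log2 fold change of -1.29 ± 0.18 (SE), where Rps27 was higher in artery. Of the ubiquitin fusions and Rack1, a scaffold on the small subunit, Fau fell in artery (-0.61 ± 0.17, SE), and Rack1 rose (0.32 ± 0.12, SE). In the quantile and abundant-RNA scalings of this small list 2 rose and 0 fell, and with median-of-ratios 0 rose and 1 fell.

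Among the genes that build ribosomes most calls were lower in artery on FPKM as deposited. Of 48 nucleolar biogenesis factors, 29 fell and 3 rose in artery, against 35.2% and 41.8% of all genes. Their median was -0.29, beside 0.11 over all genes. Imp4, a component of the small-subunit processome, averaged 9.08 ± 1.23 FPKM in artery (SD, n = 8) and 23.7 ± 3.66 FPKM in kidney (SD, n = 7), and Rrs1, of the large-subunit pathway, averaged 2.88 ± 0.388 FPKM in artery (SD, n = 8) and 6.26 ± 1.48 FPKM in kidney (SD, n = 7), while Wdr75, of the processome, averaged 13.2 ± 0.884 FPKM in artery (SD, n = 8) and 8.18 ± 1.04 FPKM in kidney (SD, n = 7). With median-of-ratios scaling 35 fell and 1 rose, with a median of -0.43, and with quantile normalization 28 fell and 3 rose, with a median of -0.31. With the sum without abundant RNAs 9 fell and 13 rose, with a median of 0.01, beside 0.41 over all genes. Of 17 genes of RNA polymerase I and its factors, 5 rose and 6 fell, against 3 and 7, 4 and 5, and 9 and 4 in those 3 scalings in the same order. The polymerase subunit Polr1d had a log2 fold change of -1.21 ± 0.11 (SE).

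Of 23 initiation factors, 12 fell in artery and 0 rose, a split that was 8 up and 6 down with quantile normalization, 9 up and 7 down for the sum without abundant RNAs, and 0 up and 18 down with median-of-ratios. Eif5a, a factor for elongation through difficult sequences despite its name, averaged 57.4 ± 6.52 FPKM in artery (SD, n = 8) and 156 ± 47.4 FPKM in kidney (SD, n = 7), and Eif6, which holds the subunits apart, averaged 21.8 ± 2.79 FPKM in artery (SD, n = 8) and 54.1 ± 11.9 FPKM in kidney (SD, n = 7). Of 19 elongation factors and other genes with a TOP tract, 6 rose and 6 fell. Pabpc1, the poly(A)-binding protein, averaged 217 ± 76.7 FPKM in artery (SD, n = 8) and 107 ± 7.33 FPKM in kidney (SD, n = 7), a log2 fold change of 0.96 ± 0.15 (SE), and Btf3, which guards nascent chains, averaged 67.9 ± 10.2 FPKM in artery (SD, n = 8) and 108 ± 26.8 FPKM in kidney (SD, n = 7), a log2 fold change of -0.66 ± 0.14 (SE). This list split 14 up and 1 down with quantile normalization, 12 up and 1 down for the sum without abundant RNAs and 1 up and 6 down with median-of-ratios.

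Among 21 regulators that act through mTORC1 or Myc, 7 rose and 9 fell in artery, with a median of 0.00; the sum without abundant RNAs gave 12 and 4. Eif4ebp1, the translational repressor that mTORC1 switches off, averaged 12.8 ± 1.71 FPKM in artery (SD, n = 8) and 1.57 ± 0.407 FPKM in kidney (SD, n = 7), a log2 fold change of 2.69 ± 0.12 (SE). Deptor, an inhibitor of mTOR, averaged 52.2 ± 6.91 FPKM in artery (SD, n = 8) and 22.7 ± 1.22 FPKM in kidney (SD, n = 7), and Sesn2, a leucine sensor upstream of mTORC1, averaged 6.94 ± 0.757 FPKM in artery (SD, n = 8) and 21.8 ± 2.40 FPKM in kidney (SD, n = 7). Of 12 chaperones and importers of ribosomal proteins, 3 rose and 5 fell, or 2 and 7 with median-of-ratios, 5 and 3 with quantile normalization and 6 and 1 with the sum without abundant RNAs, with Grwd1, the chaperone of Rpl3, at 6.01 ± 0.738 FPKM in artery (SD, n = 8) and 11.6 ± 1.17 FPKM in kidney (SD, n = 7). Of 10 targets of the p53 response to failed assembly, 2 rose and 4 fell, or 4 and 2 with the sum without abundant RNAs, and neither of the 2 snoRNA host genes tested passed. In the scalings by median of ratios, quantiles and the sum without abundant RNAs, 0, 1 and 1 of these 2 rose and 1, 1 and 0 fell, in that order. In the comparisons of genotype and in their difference between tissues, limma called 0 genes of any of these lists at an adjusted p under 0.05.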

How the data were processed

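RNA-seq of 15 rat libraries was read from 1 table of FPKM values that the authors deposited; per the submitters' processing notes, Trim Galore 0.6.2, HISAT2 2.2.1 and DESeq2 1.46.0 were used with build rn7. No source used here names the tool behind the FPKM values, and read depth is unknown. Of 40694 rows, the 6337 without a gene identifier were 0 throughout and left out, and 1 value column that matched no sample was not used. Values were tested as log2(FPKM + 0.5) with limma 3.58.1 in R 4.3.3 (trend and robust moderation) after dropping genes whose mean fell under 0.5 FPKM, and p-values were adjusted by Benjamini-Hochberg over all genes tested, with a threshold of 0.05. A fold change on this scale understates that of low genes. Exact permutation tests (scipy 1.17.1) were two-sided. Groups came from the sample titles. Genes named with fold changes were the 5 with the smallest p in each comparison of genotype and in their difference, the 12 called with the largest change between tissues with the 3 highest and 3 lowest, and a panel of 15 with known roles; the 5 highest and 5 lowest by level and at most 4 per related list were also named, and genes outside this rule were chosen after their values were seen. The members and lists were chosen with earlier results of these data known. A few genes under this rule are not reported here by name or in the plots by gene, though counts and medians include them. The fits were run on simulated data with noise drawn independently for each gene. Such data hold no shift of a library across many genes, so they do not test how the fits handle one. Alternatives changed the pseudocount, filter, scaling, moderation, weights, replicate block, threshold and libraries.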

Additional observations from a re-analysis of the deposited data

Results flagged for a closer look

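Of 117 sets of 4 libraries of named ribosomal protein genes, 6 held a library whose gap to its nearest neighbour exceeded 0.829 of the range, where chance gives about 1 in 20. Rplp1 was at 1615 FPKM in deletion artery 2, against 846 to 886 FPKM in the other deletion arteries. In deletion kidney 4, Rplp1 was at 869 FPKM, against 596 to 637 FPKM in the other 3, and Rps20 was at 316 FPKM, against 226 to 230.3 FPKM. In deletion kidney 1, Rpl35a was at 11.0 FPKM, against 5.64 to 6.29 FPKM in the other 3, and Rps27a was at 40.2 FPKM, against 18.1 to 20.04 FPKM. Rplp0 was lowest in deletion kidney 2, at 291 FPKM, against 346 to 354 FPKM in the other 3.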

How the results depend on the processing

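In the comparisons of genotype and in their difference, 0 of the 77 genes were called by limma under each alternative run, except that array weights called 4 in kidney. Leaving out single libraries moved the median log2 fold change between -0.02 and 0.20 in artery, -0.39 and 0.03 in kidney, and 0.03 and 0.51 for the difference. Between artery and kidney, quantile normalization called 59 of the 77 genes (76.6%, against 76.4% of all genes) with a median of 0.69, the sum without haemoglobin, Rn7sl1 and mitochondrial genes 51 (66.2%, against 78.6%) with a median of 0.57, and requiring a 1.5-fold change too left 17 (22.1%, against 56.9%). Leaving out single libraries gave 29 to 38 calls, against 74.3% to 77.9% of all genes, and medians of 0.10 to 0.34. The lowest median and the most calls, 23 higher and 15 lower (49.4%, against 77.0% of all genes), came without wild-type kidney 1. Among genes not called between the tissues the sign turned as follows. With median-of-ratios scaling Rpsa was at -0.010, Rpl3 at -0.039, Rpl5 at -0.14 and Rpl11 at -0.11. With quantile normalization Rplp2 was at 0.28 and Rps19 at 0.12, and with the sum without abundant RNAs Rplp2 was at 0.20. Without the 2 arteries rich in B cell markers Rpl5 was at -0.10, Rpl11 at -0.015 and Rps27a at -0.058. Without the 4 libraries that stand apart Rplp2 was at 0.0099, Rpl5 at -0.00085, Rpl38 at 0.0055 and Rps27a at -0.17, and with array weights Rps27a was at -0.22. Leaving out single libraries gave -0.35 to 0.063 for Rplp2, -0.076 to 0.14 for Rpl5 and -0.18 to 0.30 for Rpl11. The cause was not tested. Correlations of deviations from the group means do not settle whether replicate numbers pair the libraries. Same-numbered libraries correlated at 0.32, -0.34, 0.24 and 0.30 in artery, against -0.45 to 0.45 for differently numbered ones. In kidney they correlated at 0.08, -0.01 and 0.27, against -0.30 to 0.34. Arteries and kidneys of the same number and genotype correlated at -0.08 to 0.23, against -0.18 to 0.15. With the replicate block 0 genes were called in the 3 comparisons of genotype and 31 between the tissues (40.3%, against 75.8% of all genes), with medians of 0.09, -0.23, 0.26 and 0.20. Depth is unknown, so counting error cannot be separated from the spread between libraries.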
